A study of Mus musculus with 22 samples.

Results

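The genes described here code for the proteins of the cytosolic ribosome, together with their close relatives. They were taken by name from the annotation of the array: every symbol made of Rpl, Rps, Rplp or Rpsp and a number, and Rpsa, without the Rps6k kinases and without symbols marked as pseudogenes. This gave 65 of the 19057 genes with a named probe, and each gene was read from its brightest probe. They comprised 30 proteins of the large subunit, 23 of the small subunit, 3 proteins of the ribosomal stalk (Rplp0, Rplp1 and Rplp2) and 7 paralogues (Rpl3l, Rpl7l1, Rpl22l1, Rpl36al, Rpl39l, Rps27l and Rps4l). The other 2, Rps19bp1 and Rps23rg1, carry a ribosomal protein name but are no part of the ribosome: Rps19bp1 codes for a protein that binds Rps19.

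A ribosome holds 1 copy of most of its proteins, and the genes for them are read at high and closely matched levels in nearly every cell. Many of their transcripts begin with a run of pyrimidines, which ties their translation to the mTOR pathway. Striated muscle is known for an exchange after birth: Rpl3, a protein of the large subunit that lies near the catalytic centre, gives way to its muscle-specific paralogue Rpl3l. Eef1a1 and Eef1a2, elongation factors that deliver aminoacyl-tRNA, are known to exchange in muscle in the same period.

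Hearts of C57BL/6 mice were profiled on 22 Illumina bead arrays in 10 groups. In the Ronin KO groups both alleles of Ronin (Thap11, a zinc finger transcription factor) were floxed and a cardiac Cre was present. The Ctrl hearts carried the same Cre and 1 floxed allele (Nkx2.5::Cre, RoninloxP/+ or MHC::Cre; RoninloxP/+), so they were Cre-positive heterozygotes and no hearts with 2 intact alleles were compared. The Nkx2.5::Cre driver, active in cardiac progenitors, was studied at E9.5 (2 KO and 2 Ctrl arrays, each of 10 pooled hearts) and at E11.5 (3 KO and 3 Ctrl arrays). The αMHC::Cre driver, which acts later and in cardiomyocytes, was studied in embryos of E11.5, in P0 newborns and in adults of 6 weeks (2 KO and 2 Ctrl arrays at each age). The genotype entry of the αMHC KO hearts names Nkx2.5::Cre, whereas their titles name MHC, and the titles were followed. Whether replicate arrays came from separate litters is not stated, so p-values measure the spread between these arrays. The limma model pooled that spread over all groups, with weights per comparison. A heart is a mixture of cell types, and fewer cells of a type and less RNA per cell cannot be told apart in these values.

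Thap11 itself was read first. In αMHC hearts at 6 weeks its signal was 290 and 772 on the KO arrays, against 1456 and 1438 on the Ctrl arrays, a log2 fold change of -1.61 ± 0.40 (SE; limma adjusted p = 0.041). In the other 4 comparisons its log2 fold change lay between -0.68 (Nkx2.5, E11.5) and -0.41 (αMHC, P0) and did not pass the adjusted threshold. In all 5 comparisons every KO array was below every Ctrl array, and the mean log2 difference over them was -0.74 (exact permutation test within comparisons, two-sided p = 7.7e-05, the smallest possible). All 11 cardiomyocyte markers of a fixed list were above the array median in every comparison. At E11.5 with αMHC::Cre the female marker Xist was 49.9 and 54.9 on the KO arrays, against 1888 and 1989 on the Ctrl arrays, so sex and genotype cannot be told apart in that comparison. With Nkx2.5::Cre at E11.5 Xist was 695, 40.1 and 36.7 on KO arrays, against 659, 1018 and 47.0 on Ctrl arrays. At P0 Xist was 348 and 72.1 on KO arrays, against 2244 and 91.5 on Ctrl arrays. Sex was thus not evenly spread there either, and its part in other values was not tested.

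Probes differ in affinity, so a probe's rank on an array is a description of signal and not of transcript level. The median member stood between percentile 98.2 and percentile 99.4 of all genes. In Ctrl hearts the median of the members tested was 21855 at E9.5, 14076 at E11.5 with Nkx2.5::Cre, 20081 at E11.5 with αMHC::Cre, 21288 at P0 and 10593 at 6 weeks. Testing was limited to probes whose mean exceeded the array median of the comparison, and 59, 60, 61, 60 and 58 of the 65 members passed in the order just given. The probes of Rpl17, Rpl39l, Rps20 and Rps23 were below this line in all 5 comparisons, Rpl6 was below it in 4, and Rpl14, Rps23rg1 and Rpsa in 1 each. Of the 65 members, 57 were tested in all 5 comparisons.

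In αMHC KO hearts at 6 weeks Rpl3l was lower and Rpl3 was higher than in Ctrl hearts. Rpl3l gave 2757 and 12013 on the KO arrays, against 30489 and 21696 on the Ctrl arrays. Both KO values were below both Ctrl values, and the KO arrays differed from each other more than the Ctrl arrays did. The log2 fold change was -2.16 ± 0.43 (SE, n = 2 each; limma adjusted p = 0.011), which is 4.47-fold lower. Rpl3 moved the other way and gave 19068 and 15987 on the KO arrays, against 7897 and 9632 on the Ctrl arrays. The log2 fold change was 1.00 ± 0.14 (SE, n = 2 each; limma adjusted p = 6.1e-04), a 2.00-fold rise with no overlap between the groups. The KO array with the lower Thap11 signal, the first, also had the lower Rpl3l and the higher Rpl3 signal. Xist was 58.5 and 689 on the KO arrays and 57.5 and 556 on the Ctrl arrays, so the 2 arrays of each group differed in sex. Between the 2 KO arrays, Thap11 signal and sex cannot be told apart.

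**Figure D1:**
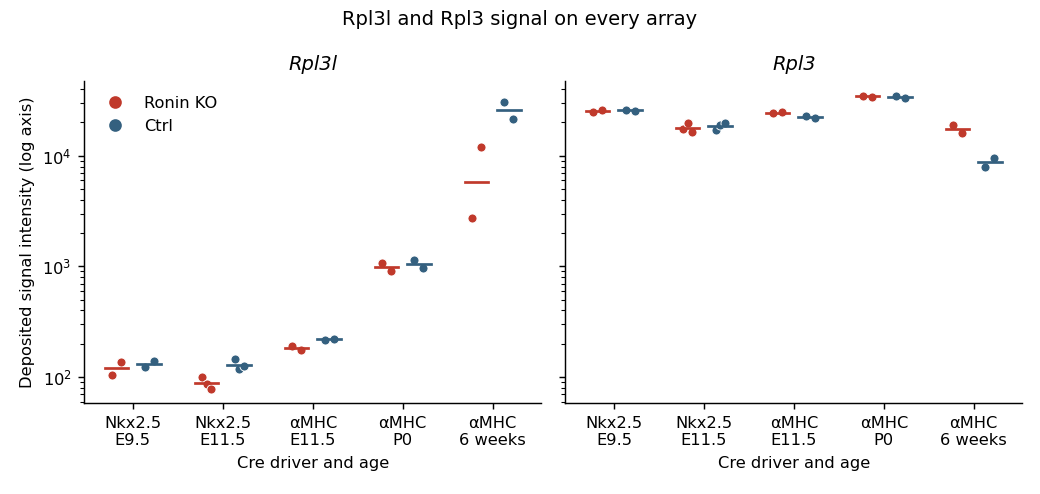
Deposited signal intensity (log axis) of Rpl3l (left) and Rpl3 (right) on each of the 22 arrays, with KO arrays (red) left of Ctrl arrays (blue) at each Cre driver and age. Points are arrays and bars are geometric means; the 2 panels show different probes, so heights are compared within a panel only. At 6 weeks Rpl3l was 2757 and 12013 in KO against 30489 and 21696 in Ctrl, while Rpl3 was 19068 and 15987 in KO against 7897 and 9632 in Ctrl.

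These 2 were the only members called at 6 weeks among the 58 tested, 1 higher and 1 lower. Over all genes tested there, 0.719% were called higher and 1.05% lower. The same 2 members were those with an unadjusted p under 0.05, a level at which 5.51% of all genes were higher and 5.05% lower. Both calls rested on few arrays. Without the first Ctrl array the log2 fold change of Rpl3l was -1.91 (adjusted p = 0.33) and that of Rpl3 was 0.86 (adjusted p = 0.082). Without the first KO array that of Rpl3l was -1.10 (adjusted p = 0.15), while Rpl3 kept its call. With the 4 arrays of this age fitted alone, which leaves 2 residual degrees of freedom, the adjusted p was 0.42 for Rpl3l and 0.26 for Rpl3.

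Markers of the cell types of the heart at 6 weeks are given beside this result. Of 11 cardiomyocyte markers 6 were above 0 and 5 below 0 in KO hearts, from -0.87 to 1.89 in log2 fold change (median 0.04), and their summed signal was 273750 to 290086 in KO hearts, against 254136 to 269352 in Ctrl hearts. All 6 fibroblast markers tested were above 0 (median 0.26, highest 1.40), with Postn below the array median, and the list summed to 18430 to 23960 in KO hearts, against 15962 to 20120 in Ctrl hearts. Of 7 endothelial markers 6 were above 0 (median 0.20), with sums of 5427 to 8974 in KO hearts, against 5988 to 6066 in Ctrl hearts. Over all genes 53.0% were above 0. Of the other lists, 2 of 4 leukocyte markers tested (sums of 5469 to 8534 in KO hearts, against 6697 to 6819 in Ctrl hearts, with Ptprc below the median), 3 of 6 erythroid markers (15570 to 37697 in KO hearts, against 24140 to 41148 in Ctrl hearts) and 6 of 7 proliferation genes (980 to 994 in KO hearts, against 865 to 873 in Ctrl hearts) were above 0. No gene of these lists was called at this age, and the part of the cell types in the Rpl3 and Rpl3l values was not tested.

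In the earlier hearts Rpl3l was dim and its KO values lay lower by smaller amounts. With Nkx2.5::Cre at E11.5 it gave 101, 85.8 and 78.6 on the KO arrays, against 146, 119 and 125 on the Ctrl arrays. The groups did not overlap, but the log2 fold change of -0.56 ± 0.30 (SE, n = 3 each) did not pass (limma adjusted p = 0.65). With αMHC::Cre at E11.5 it gave 190 and 177 on KO arrays, against 215 and 223 on Ctrl arrays (log2 fold change -0.26 ± 0.23). At P0 it gave 1070 and 912 on KO arrays, against 1137 and 966 on Ctrl arrays (-0.09 ± 0.33), and at E9.5 it gave 105 and 138 on KO arrays, against 123 and 140 on Ctrl arrays (-0.12 ± 0.24). In both of these the groups overlapped.

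A single test over all 5 comparisons was made by exchanging KO and Ctrl labels within each comparison in every possible way (25920 assignments, two-sided exact permutation test, smallest possible p = 7.7e-05). The mean log2 difference of Rpl3l was -0.64 (exact permutation p = 0.0010), and it was below 0 in 5 of 5 comparisons, although at E9.5 it was 0.07 without the first KO array and at P0 0.03 without either the second KO or the first Ctrl array. That of Rpl3 was 0.21 (exact permutation p = 0.13). The within-array difference of log2 Rpl3l and log2 Rpl3, compared between groups only, was lower by a mean of 0.85 in KO hearts (difference -0.85, exact permutation p = 0.0013). Its change was -3.16 at 6 weeks, and it ranged from -0.50 to -0.10 in the other comparisons. The 6-week log2 difference of Rpl3l, -2.16, was the lowest of its 5. Sex and genotype cannot be told apart at E11.5 with αMHC::Cre, which entered each mean. Rpl3l and Rpl3 were chosen with earlier results of these data known. These p-values were neither adjusted for that choice nor set beside those of all genes. Without the first Ctrl array at 6 weeks the permutation p of Rpl3l was 0.057.

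Whether the effect of the knockout itself changed with age was tested as a difference of log2 fold changes. For Rpl3 the effect at 6 weeks exceeded that at P0 by 0.99 ± 0.18 (SE; limma adjusted p = 0.028) and that at E11.5 by 0.89 ± 0.16 (adjusted p = 0.010), both with αMHC::Cre. It was the only member called in either of these differences, where 0.08% and 0.312% of all genes were called higher and 0.128% and 0.452% lower. For Rpl3l the same differences were -2.07 ± 0.54 (adjusted p = 0.17) and -1.90 ± 0.48 (adjusted p = 0.086), neither of which passed. Sex and genotype cannot be told apart at E11.5 with αMHC::Cre, and every difference that uses that comparison shares this limit. No member was called in the difference between drivers at E11.5, where 0.0406% of all genes were called higher and 0.0325% lower. None was called between E11.5 and E9.5 with Nkx2.5::Cre (0.00806% of all genes higher and 0.00806% lower) or between P0 and E11.5 with αMHC::Cre (0% in either direction). The lowest unadjusted p of a member there was that of Rplp0, whose effect with Nkx2.5::Cre at E11.5 was below that at E9.5 (-0.73 ± 0.21, unadjusted p = 0.0022, limma adjusted p = 0.80). The Rpl3 difference between 6 weeks and P0 did not pass when any of the 4 P0 arrays, the first KO array or the first Ctrl array of 6 weeks was left out (0.85 without that Ctrl array, adjusted p = 0.50), and the difference between 6 weeks and E11.5 did not pass without either of these last arrays (0.76 without the KO array, adjusted p = 0.11; 0.75 without the Ctrl array, adjusted p = 0.33).

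Across the 10 groups Rpl3l followed the age of the heart. After quantile normalization of all 22 arrays, its mean signal was lowest in the 6 embryonic groups (112 to 200), followed by P0 (630 in KO and 668 in Ctrl), and was highest at 6 weeks (5990 in KO and 25858 in Ctrl). The KO and Ctrl ranges overlapped at P0 but not at 6 weeks, where the KO level lay between that of P0 hearts and that of Ctrl hearts. Among the embryonic neighbours in this order, the E9.5 KO hearts overlapped both the E9.5 Ctrl hearts and the Nkx2.5 KO hearts of E11.5, and the αMHC KO hearts of E11.5 overlapped the Nkx2.5 Ctrl hearts of that age. Rpl3 was lowest at 6 weeks, with 17467 in KO and 8962 in Ctrl hearts, both below the 21368 to 26073 of the 8 earlier groups. The KO hearts at 6 weeks did not overlap the Ctrl hearts of that age or the E11.5 αMHC Ctrl hearts next in order. Age cannot be told apart from the set of arrays that the authors normalized together.

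In Ctrl hearts alone, Rpl3l was 3.35-fold higher at P0 than at E11.5 (log2 difference 1.74 ± 0.24, SE; limma adjusted p = 8.4e-06) and 38.7-fold higher at 6 weeks than at P0 (5.27 ± 0.36, adjusted p = 1.5e-09). Rpl3 was not called between P0 and E11.5 (log2 difference 0.10, adjusted p = 0.36), but without normalization across arrays that difference was 0.60 (adjusted p = 1.6e-05) and with median scaling it was -0.05 (adjusted p = 0.64). Rpl3 was 2.55-fold lower at 6 weeks than at P0 (log2 difference -1.35 ± 0.13, adjusted p = 1.4e-07). Between these ages Rpl3 had the lowest log2 difference of all 58 members tested and Rpl3l the highest.

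The 5 genes whose group means were most like those of Rpl3l, by Pearson's r over the 10 groups among 13502 genes, were Cars2 (0.998), a mitochondrial cysteinyl-tRNA synthetase, Magix (0.997), Hjv (0.997), the hemojuvelin co-receptor of iron control, Efcab2 (0.996) and Fndc5 (0.995), the precursor of irisin. The 10 groups share arrays, normalization and age, and both 6-week groups entered r, so these are descriptions of a common pattern. Among the other members, the highest r to Rpl3l was 0.565, that of Rpsa.

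Apart from this pair, no ribosomal protein gene was called at any age in the fit without a replicate block. Other settings called Rplp0 and Rpl21 at E11.5 and Rps25 at E9.5, both with Nkx2.5::Cre. At 6 weeks the brightest probes of the other 56 members ranged from -0.41 (Rps15a) to 0.36 (Rpsa) in log2 fold change, and 52 of them were within 0.25 of 0. Some second probes lay outside this range, with 1.62 for Rpl29, 0.67 for Rpl38 and -0.42 for Rps2. Second probes were not tested on their own. The median over all 58 was 0.03, against 0.02 for all genes tested, and 32 of 58 were above 0. Rpl36a, of the large subunit, had the next highest value (0.29 ± 0.20), with 4104 and 5910 on the KO arrays against 3323 and 4849 on the Ctrl arrays, which overlapped. Rpl7a, of the large subunit, gave 1900 and 3146 on the KO arrays, against 2387 and 3682 on the Ctrl arrays (-0.28 ± 0.34). Rps15a and Rpsa, of the small subunit, were dim, with 93.4 and 120 on KO arrays against 123 and 162 on Ctrl arrays for Rps15a, and 92.0 and 124 on KO arrays against 70.4 and 98.8 on Ctrl arrays for Rpsa. Of the 58, 6 lay wholly higher and 9 wholly lower in KO than in Ctrl, where 19.6% and 17.9% of all genes did, so the count was not above the background in either direction.

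**Figure D2:**
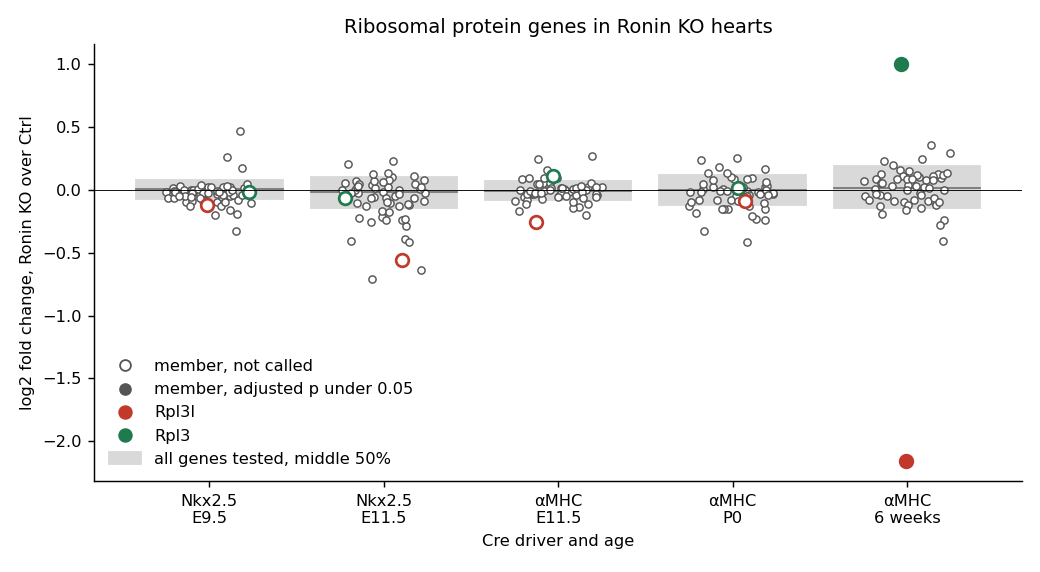
log2 fold change (Ronin KO over Ctrl) of every tested ribosomal protein gene in each of the 5 comparisons. Open circles did not pass and filled circles passed the adjusted threshold; grey boxes span the middle 50% of all genes tested, with their median as a line. Only Rpl3 (1.00) and Rpl3l (-2.16) at 6 weeks are filled.

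With Nkx2.5::Cre at E11.5 the members that were lowest in KO hearts were Rplp0 and Rpl21. Rplp0, the scaffold of the stalk that recruits elongation factors, gave 649, 697 and 534 on the KO arrays, against 958, 1128 and 983 on the Ctrl arrays. Rpl21, of the large subunit, gave 154, 140 and 172 on the KO arrays, against 258, 210 and 256 on the Ctrl arrays. All 3 KO values were below all 3 Ctrl values for both genes. The log2 fold changes were -0.71 ± 0.16 for Rplp0 (limma adjusted p = 0.061) and -0.63 ± 0.16 for Rpl21 (adjusted p = 0.096), neither past the threshold, and 0 of 60 members were called where 0.382% of all genes were called lower and 0.11% higher. At an unadjusted p under 0.05, 1 of the 60 members was higher and 5 were lower, where 3.4% and 5.12% of all genes were. A fit with the replicate number as a block is given because same-numbered arrays of this comparison deviated together, although no label names what they share. In that fit Rplp0 (limma adjusted p = 0.0041) and Rpl21 (adjusted p = 0.016) were called lower, where 2.15% of all genes were called higher and 1.99% lower. The 2 further probes of Rpl21 gave log2 fold changes of -0.38 each, while the second probe of Rplp0 read near the array median and gave -0.12.

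Rpl13a, a large subunit protein known in other settings for a role in translational silencing, and Rpl29, another large subunit protein, were also low in some of these arrays. Rpl13a gave 1870, 2172 and 1458 on KO arrays, against 2536, 2467 and 2139 on Ctrl arrays (-0.39 ± 0.16, adjusted p = 0.47), and Rpl29 gave 7518, 12430 and 8121 on KO arrays, against 11324, 12926 and 12240 on Ctrl arrays (-0.41 ± 0.15, adjusted p = 0.41). The groups overlapped for both genes. Rps15a, of the small subunit, gave 127, 113 and 108 on KO arrays, against 171, 167 and 127 on Ctrl arrays (-0.41 ± 0.18, adjusted p = 0.52), without overlap. The highest member was Rpl27, with 15083, 16936 and 20839 on KO arrays against 14832, 15320 and 14668 on Ctrl arrays (0.23 ± 0.10, adjusted p = 0.54), followed by Rps6 (0.21 ± 0.16) and Rps7 (0.13 ± 0.09). Over the 60 members tested the median was -0.04, against -0.02 over all genes, and 24 were above 0. Of the members 11 lay wholly lower and 1 wholly higher in KO, where 8.57% and 4.15% of all genes did. The 11 erythroid markers summed to 147574 to 225624 in KO hearts, against 134522 to 177841 in Ctrl hearts. One by one, 9 of the 10 erythroid markers tested were above 0 in KO hearts, with a median log2 fold change of 0.64 and a highest of 1.59, and 5 of them had an unadjusted p under 0.05. Of the 6 fibroblast markers tested 5 were above 0 (median 0.30), where 46.1% of all genes were. None of these markers was called, and their part in the values of the members was not tested.

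**Figure D3:**
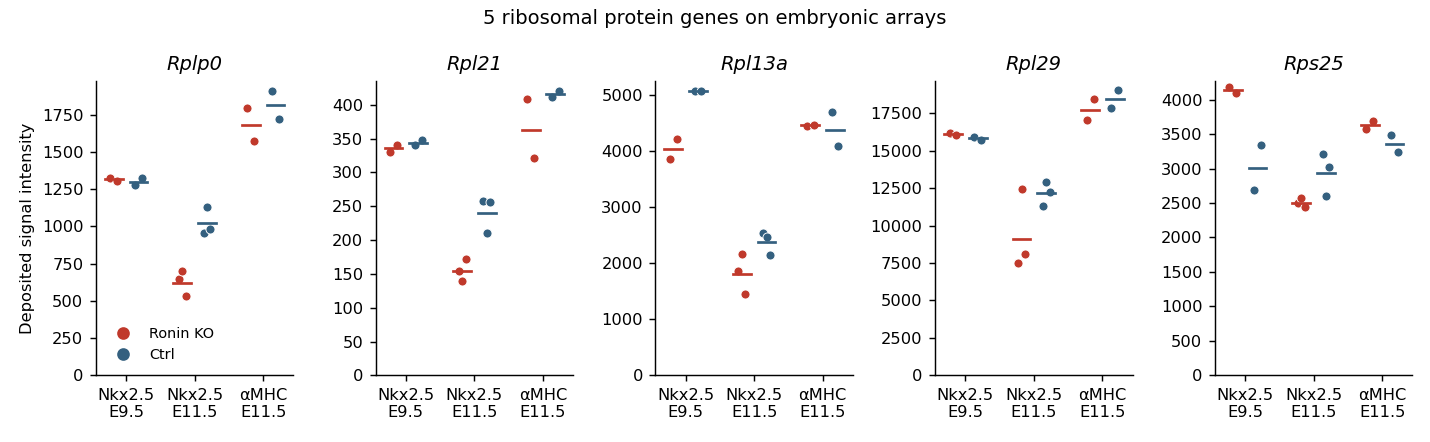
Deposited signal intensity of Rplp0, Rpl21, Rpl13a, Rpl29 and Rps25 on the embryonic arrays, with KO arrays (red) left of Ctrl arrays (blue); points are arrays and bars are geometric means, and each panel has its own axis from 0. At E11.5 with Nkx2.5::Cre all 3 KO values of Rplp0 (534 to 697) and Rpl21 (140 to 172) lie below all 3 Ctrl values.

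At E9.5, 0 of 59 members were called, where 0.18% of all genes were called higher and 0.317% lower. Rps25, a small subunit protein, was highest, with 4182 and 4103 on KO arrays against 2691 and 3347 on Ctrl arrays. Its log2 fold change of 0.46 ± 0.12 did not pass (limma adjusted p = 0.16), and at E11.5 with the same driver it had the other sign, with KO arrays at 2502, 2576 and 2436 against Ctrl arrays at 3208, 2607 and 3023. Rpl13a was lowest at E9.5, with 3865 and 4216 on KO arrays against 5071 and 5070 on Ctrl arrays (-0.33 ± 0.12, adjusted p = 0.70). Next to these stood Rpl7a (0.26 ± 0.19) and Rps23rg1 (0.17 ± 0.10) above 0, and Rps6 (-0.20 ± 0.13) and Rps19bp1 (-0.19 ± 0.17) below 0. Rps25 and Rpl13a were the only members with an unadjusted p under 0.05, which 2.15% of all genes reached as higher and 2.56% as lower. The median of the members was -0.02, against 0.01 for all genes, and 15 of 59 were above 0. The replicate spread of the members was smaller than that over all genes (median SD 0.0585 in log2, against 0.104 over all genes). Many members were also bright, with a highest Ctrl mean of 57198 (Rps2) at E9.5. Whether such high signal narrowed their spread or their log2 fold changes was not tested. Of the 59, 16 lay wholly lower and 5 wholly higher in KO, where 13.8% and 15.9% of all genes did, so the share was above the background for lower and below it for higher.

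With αMHC::Cre at E11.5, 0 of 61 members were called, where 0.00845% of all genes were called lower and 0% higher. Rps10, a small subunit protein, gave 13803 and 14033 on KO arrays, against 11471 and 11604 on Ctrl arrays, and was highest (0.27 ± 0.09, unadjusted p = 0.0054, limma adjusted p = 0.67). It was the only member with an unadjusted p under 0.05, which 2.11% of all genes reached as higher and 2.28% as lower. Rps3a1, also of the small subunit, gave 1962 and 3415 on KO arrays, against 2249 and 2116 on Ctrl arrays (0.25 ± 0.19), and rested on the second KO array, without which it was -0.15. Below 0, Rpl21 gave 408 and 322 on KO arrays, against 411 and 421 on Ctrl arrays (-0.20 ± 0.12), and Rps15a had -0.16 ± 0.13. At P0, 0 of 60 members were called in a comparison where 0% of all genes were called in either direction, and none had an unadjusted p under 0.05 there, which 2.17% of all genes reached as higher and 2.03% as lower. The lowest 2 were Rps19bp1 (-0.42 ± 0.23), with 391 and 262 on KO arrays against 387 and 472 on Ctrl arrays, and Rps4l (-0.33 ± 0.16), with 3048 and 2443 on KO arrays against 3790 and 3107 on Ctrl arrays, followed by Rplp0 (-0.24 ± 0.18). The highest were Rpl29 (0.25 ± 0.17), Rplp2 (0.24 ± 0.14), a stalk protein, and Rpl22l1 (0.18 ± 0.19). Probes disagreed for Rplp0, whose second probe gave 0.10 at P0, and for Rpl29, whose second probe gave 0.89 at P0 and 1.62 at 6 weeks, where its brightest probe gave 0.20. The medians were -0.01 at E11.5 and -0.02 at P0, each within 0.02 of all genes. Counts of members wholly higher and wholly lower in KO were 7 and 8 at E11.5 (14.7% and 17.8% of all genes) and 9 and 2 at P0 (14.6% and 15.7% of all genes).

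By role, the medians of both subunits lay near 0. At 6 weeks the median log2 fold change was 0.05 over 27 large subunit proteins and -0.04 over 21 small subunit proteins. At E9.5 the 2 medians were -0.02 and -0.05, and at E11.5 with Nkx2.5::Cre they were -0.04 and 0.00. No member lay above 0 in all 5 comparisons on its brightest probe. Of the 57 tested in all of them, 5 lay below 0 in all 5: Rpl21, Rpl31, Rpl37, Rpl3l and Rps19. Rpl31, Rpl37 and Rps19 each had log2 fold changes no lower than -0.10 in any comparison. No member had KO and Ctrl ranges apart in 1 direction in all 5. For 44 of the 57, every log2 fold change of the brightest probe was within 0.25 of 0. Whether the high signal of many members narrowed these or other log2 fold changes was not tested.

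Rps6, the small subunit protein whose phosphorylation reports mTOR and S6 kinase activity, was measured as transcript only. At E11.5 with αMHC::Cre it gave 17023 and 17494 on KO arrays, against 16394 and 14620 on Ctrl arrays (0.16 ± 0.12), and at 6 weeks it gave 3526 and 2961 on KO arrays, against 4090 and 2910 on Ctrl arrays (-0.09 ± 0.23). It was not called in any comparison. Among the paralogues other than Rpl3l, Rpl7l1, Rps27l, Rpl36al, Rpl22l1 and Rps4l were tested in all 5 comparisons and none was called. Rpl36al had its highest value at 6 weeks, with 12110 and 10676 on KO arrays against 9863 and 9557 on Ctrl arrays (0.23 ± 0.17), beside 0.29 for its parent gene Rpl36a. Rpl22l1 had a log2 fold change of 0.10 at 6 weeks beside 0.11 for its parent Rpl22, and Rps4l one of -0.08 beside -0.19 for its parent Rps4x. Rpl39l was below the line for testing at every age, and its parent Rpl39 had a log2 fold change of 0.03 at 6 weeks.

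The promoters bear on the study because Ronin binds a defined motif close to start sites. RefSeq promoter windows (GRCm38.p6, from 250 bases before to 50 bases after each annotated start) were matched for 54 of the 65 members. The Ronin motif as the study names it, 13 bases long and searched on both strands, occurred in 3 of these 54 (5.56%), against 2.61% of 27025 genes with a window. The 3 sites are printed with 20 bases on each side, 5′ to 3′ on the strand of the gene, with the motif in capitals. The site of Rpl6 lies at chr5:121204424-121204476 on the plus strand, 57 to 45 bases before the start, that of Rps13 at chr7:116334230-116334282 on the minus strand, and that of Rpl41 at chr10:128549364-128549416 on the minus strand.
Rpl6: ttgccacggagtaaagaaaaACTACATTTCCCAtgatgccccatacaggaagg
Rps13: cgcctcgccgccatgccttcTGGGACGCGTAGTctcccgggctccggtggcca
Rpl41: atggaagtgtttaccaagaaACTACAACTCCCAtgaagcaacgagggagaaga
A match is a description of the letters and not a bound site. Rpl6, which is also among the genes that the study lists as bound by Ronin together with its cofactor Hcf-1, had a probe near background: at E11.5 with αMHC::Cre, where it could be tested, it gave 79.0 and 74.6 on KO arrays, against 67.3 and 76.9 on Ctrl arrays (0.09 ± 0.08). Rps13 had log2 fold changes from -0.16 (E9.5) to 0.08 (E11.5, Nkx2.5::Cre). Those of Rpl41, a very short protein of the large subunit, ranged from -0.06 to 0.06. Rpl41 had the highest Ctrl mean of the members tested at P0 (64559). Whether signal this high narrowed its log2 fold changes was not tested. A second probe of Rps13 gave 0.38 at E11.5 with Nkx2.5::Cre and -0.40 at 6 weeks. Neither was called in any comparison. Rpl18, also on that list, had no probe of that symbol here.

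Runs of pyrimidines near the annotated start were read from the same windows. Within 20 bases on either side of the annotated start, 24 of 54 members (44.4%) had a run of at least 8 such bases, against 18.4% of all genes, with a median longest run of 7 in the members and 5 in all genes. The start regions of members named above are printed from 20 bases before to 20 bases after the start, with the longest run in capitals, to show long and short runs among them. For Rpl3l the first of its 2 RefSeq starts is shown.
Rps6 (chr4:86857348-86857387, minus strand): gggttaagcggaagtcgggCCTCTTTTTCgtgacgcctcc
Rps10 (chr17:27635225-27635264, minus strand): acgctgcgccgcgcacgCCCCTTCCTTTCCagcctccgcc
Rpl13a (chr7:45128726-45128765, minus strand): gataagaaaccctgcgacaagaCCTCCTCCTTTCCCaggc
Rps25 (chr9:44407694-44407733, plus strand): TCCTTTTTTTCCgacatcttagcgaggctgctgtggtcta
Rplp0 (chr5:115559447-115559486, plus strand): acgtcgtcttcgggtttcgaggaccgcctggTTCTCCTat
Rps7 (chr12:28635934-28635973, minus strand): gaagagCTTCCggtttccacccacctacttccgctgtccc
Rpl3l (chr17:24727806-24727845, plus strand): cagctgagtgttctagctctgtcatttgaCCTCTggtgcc
The run was 10 bases in Rps6, 13 in Rps10, 14 in Rpl13a, 12 in Rps25, 7 in Rplp0 and 5 each in Rps7 and Rpl3l. A run in this region need not be where the transcript begins. Those of Rps25 (-20 to -9) and Rps7 (-14 to -10) lay wholly before the annotated start, and that of Rplp0 lay at 12 to 18 after it. The run of Rps25 touched the edge of the region and may be longer. A longest run of 5 or fewer bases was found in 18 of the 54 members (33.3%), against 58.8% of all genes, so the short run of Rpl3l was shared by other members. No window of Rpl3 was used here.

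Between ages, after quantile normalization over all arrays, the share of ribosomal protein genes called lower in the later Ctrl hearts was above that of all genes in each of 4 comparisons, while many members were not called and some were higher. The members were not tested as a group against other genes. At 6 weeks against P0, 27 of 58 members were called lower and 1, Rpl3l, higher, where 17.8% of all genes were lower and 16.7% higher. The median log2 difference of the members was -0.38, against 0.01 for all genes. Next to Rpl3, the lowest were Rplp0 (-1.25 ± 0.22), Rps4l (-1.11 ± 0.20) and Rpl29 (-1.10 ± 0.19). The count of 27 was 10 without the first and 12 without the second Ctrl array of 6 weeks, and 15 without the second Ctrl array of P0.

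At P0 against E11.5 in αMHC Ctrl hearts, 30 of 60 members were lower and 5 higher, where 31.9% of all genes were lower and 22.6% higher. The 5 were Rpl3l, Rpl22l1 (1.02 ± 0.16), Rps3a1 (0.97 ± 0.23), Rps25 (0.71 ± 0.14) and Rpl36al (0.58 ± 0.10). Rpl7a (-1.63 ± 0.20), Rps6 (-1.52 ± 0.14) and Rps26 (-1.47 ± 0.13), proteins of both subunits, were the lowest. Over the whole span from E11.5 to 6 weeks 43 of 59 were lower and 3 higher (Rpl3l, Rps25 and Rpl36al), where 32.6% and 25.6% of all genes were. In Nkx2.5 Ctrl hearts at E11.5 against E9.5, 15 of 60 were lower and 3 higher, where 16.6% and 18.7% of all genes were.

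**Figure D4:**
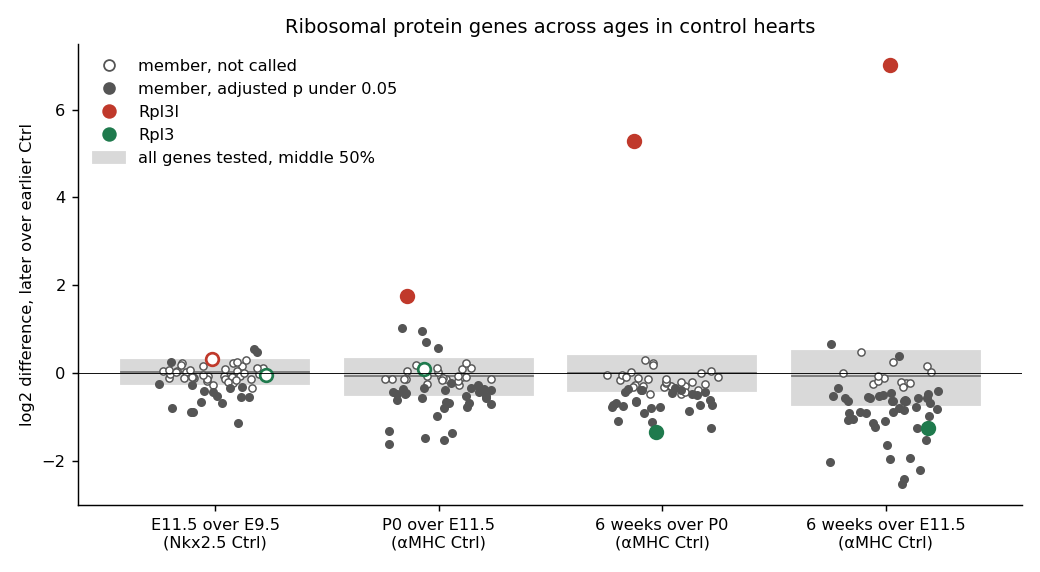
log2 difference between later and earlier Ctrl hearts of every tested ribosomal protein gene after quantile normalization over all arrays. Filled circles passed and open circles did not pass the adjusted threshold, and grey boxes span the middle 50% of all genes tested. Rpl3l lies at 1.74, 5.27 and 7.02 in the 3 αMHC comparisons, and Rpl3 at -1.35 for 6 weeks over P0.

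These calls depended on the scale. Without normalization across arrays, 8 of 60 members were lower and 26 higher at P0 against E11.5, a scale on which the median of all genes itself moved by 0.43, and 48 of 60 were lower at E11.5 against E9.5. Rpl3l was higher at 6 weeks than at P0, and Rpl3 lower, on every scale tried.

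Genes that build or drive the ribosome were read from lists chosen by name. Of 48 ribosome biogenesis genes 44 were tested at 6 weeks, and 37 were above 0 in KO hearts with a median log2 fold change of 0.25, against 53.0% of all genes above 0 and a median of 0.02. Rrp12, a factor in subunit export and rRNA processing, was the 1 gene of the list called, where 0.719% of all genes were called higher and 1.05% lower, with 3280 and 2387 on KO arrays against 798 and 1614 on Ctrl arrays (1.30 ± 0.32, limma adjusted p = 0.038). Polr1a, the largest subunit of RNA polymerase I, gave 2581 and 2514 on KO arrays, against 1479 and 1804 on Ctrl arrays, and did not pass (adjusted p = 0.19). At the 3 embryonic comparisons the median of this list lay between -0.00 and 0.02, and at P0 it was 0.10, with 0 called in each. Polr1a was chosen after its values were seen. The call of Rrp12 rests on 2 arrays in each group. Whether it holds with 1 array left out is not given here, so its stability is not known.

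Of 33 translation factors 30 were tested at 6 weeks, and 2 were called, both higher, where 0.719% of all genes were called higher and 1.05% lower. Eef1a1 gave 50409 and 34344 on KO arrays, against 21352 and 22612 on Ctrl arrays (0.92 ± 0.15, limma adjusted p = 0.0021), and Eif4a1, an RNA helicase of translation initiation, gave 13979 and 11068 on KO arrays, against 7458 and 7986 on Ctrl arrays (0.69 ± 0.14, adjusted p = 0.011). Eef1a2, the muscle partner of Eef1a1, gave 18354 and 18789 on KO arrays, against 22530 and 20553 on Ctrl arrays (-0.21 ± 0.38, adjusted p = 1.00). With Nkx2.5::Cre at E11.5 Eef1a2 gave 932, 566 and 738 on KO arrays, against 2430, 939 and 1438 on Ctrl arrays, without overlap (-1.03 ± 0.27, limma adjusted p = 0.12). In Ctrl hearts Eef1a2 was higher at 6 weeks than at P0 by 1.19 in log2 and Eef1a1 lower by 1.10 (log2 difference -1.10). The effect on Eef1a1 at 6 weeks exceeded that at P0 by 0.95 ± 0.19 (limma adjusted p = 0.044) and that at E11.5 by 0.90 ± 0.17 (adjusted p = 0.015). In this pair the gene of earlier stages was called higher in KO hearts at 6 weeks, and the later one was not called in KO hearts of any age in the fit without a block. The calls of Eef1a1 and Eif4a1 rest on the same 6-week arrays, 2 in each group, as those of Rpl3 and Rpl3l. Whether these calls or the Eef1a1 differences hold with 1 array left out is not given here, so their stability is not known. Of 4 regulators in the table (Myc, Mycn, Larp1 and Mtor), 3 were tested in each comparison and none was called.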

How the data were processed

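Total RNA of mouse hearts was hybridised to Illumina MouseWG-6 v2.0 arrays. The deposited values are signal intensities on a linear scale, for which the authors name cubic spline normalization in GenePattern or, for part of their analyses, quantile normalization. No background subtraction is stated. Array medians were nearly the same, but not equal, within a comparison and differed between comparisons, so ages were compared only after quantile normalization over all 22 arrays. A non-normalized table of 22 columns was not used, because its column numbers match no label. Of 45281 probes 34885 had 1 gene symbol, 18 several and 10378 none in the platform annotation, and a gene was read from its brightest probe.

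Intensities were log2 transformed and fitted in limma 3.58.1 (R 4.3.3) with 1 mean for each of the 10 groups, array weights per comparison (0.532 at 6 weeks to 1.91 at E11.5 with αMHC::Cre) and an intensity trend, leaving 12 residual degrees of freedom. Genes below the mean array median of a comparison were not tested there. P-values were two-sided and Benjamini-Hochberg adjusted over all genes tested in a comparison, with a threshold of 0.05. The procedure was tested on simulated data in which arrays varied independently. That test cannot speak to errors where arrays deviate together, as some did here. The number of arrays limits the precision.

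Arrays with the same replicate number deviated together in the Nkx2.5 E11.5 comparison (correlations 0.44, 0.61 and 0.52), where labels give the numbers but no shared litter or day, so a fit with the replicate number as a block is given there. With 2 pairs the correlation was 0.36 at E9.5, 0.025 at E11.5 with αMHC::Cre, 0.22 at P0 and 0.35 at 6 weeks, and no pairing was taken.

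Named genes were Rpl3, Rpl3l, the paralogues with their parents, Rps6, Rps19bp1, Rpl6 and Rpl18, every called member, the 3 highest and 3 lowest members of a comparison, and the 5 genes most like Rpl3l; Rps13 and Rpl41 were added for their motif, Rpl13a, Rpl29 and Rps15a at E11.5 and Rpl31, Rpl37 and Rps19 after their values were seen. The members and lists were chosen with earlier results of these data known. Promoter sequences are those of RefSeq (GRCm38.p6).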

Additional observations from a re-analysis of the deposited data

Results flagged for a closer look

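The log2 fold change of Rpl3 between KO and Ctrl hearts differed between ages with αMHC::Cre in the fit of all arrays, by a test of the difference itself. The log2 fold change at 6 weeks exceeded that at P0 by 0.99 ± 0.18 (SE; limma adjusted p = 0.028) and that at E11.5 by 0.89 ± 0.16 (adjusted p = 0.010). At 6 weeks both KO arrays were above both Ctrl arrays, whereas at P0 the groups overlapped. At E11.5 with αMHC::Cre sex and genotype cannot be told apart, and the difference from E11.5 shares this limit. The study describes enlarged heart muscle cells and a cardiomyopathy gene signature in αMHC KO hearts at 6 weeks. The part of that disease in the Rpl3 values was not tested. The first of these differences lost its call in 6 of 8 fits that each left out 1 array, and the second in 2 of 8.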

How the results depend on the processing

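The direction of Rpl3 and Rpl3l at 6 weeks held under every alternative tried, but their calls did not. Fitted within the 4 arrays of that age, Rpl3 (1.00, adjusted p = 0.26) and Rpl3l (-2.16, adjusted p = 0.42) were not called, and 0 members were. The methods' t-test gave the same log2 fold changes with Benjamini-Hochberg adjusted values of 0.89 for both (unadjusted, 1 member higher and 1 lower) and called 0 members. Leaving out 1 array gave -3.22 to -1.10 for Rpl3l, 0.86 to 1.14 for Rpl3 and 0 to 2 members called. Rpl3l lost its call without the first Ctrl or the first KO array, and Rpl3 without the first Ctrl array.

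With Nkx2.5::Cre at E11.5, 2 members (Rplp0 and Rpl21) were called with equal array weights and 2 with the replicate block, and 0 to 2 with 1 array left out: 1 without the second KO array and 2 without the third. At E9.5 the replicate block called 1 member, Rps25 (adjusted p = 0.047). At 6 weeks it called 2, as without it. Over all genes it called 252 higher and 275 lower at 6 weeks, against 84 and 123 without it, and 10 and 2 at E11.5 with αMHC::Cre, against 0 and 1.

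Member medians moved to -0.0173 (quantile normalization) and -0.0378 (mean of a gene's probes) at E9.5, and to 0.00303 at 6 weeks with no filter. With 1 array left out they ranged from -0.0456 to -0.0226 at E9.5, -0.101 to -0.0134 at E11.5 with Nkx2.5::Cre, -0.0308 to 0.0053 with αMHC::Cre and -0.103 to 0.0458 at P0. Members called in the difference of effects ranged from 0 to 2 for 6 weeks minus P0 and from 0 to 2 for 6 weeks minus E11.5; 2 were called without the second KO array of 6 weeks.

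Between ages, no normalization gave 0 higher and 48 lower (E11.5 minus E9.5), 26 and 8 (P0 minus E11.5), 56 lower (6 weeks minus P0) and 1 higher (6 weeks minus E11.5). Median scaling gave 0 higher and 48 lower (E11.5 minus E9.5) and 1 higher (6 weeks minus E11.5). These scalings moved the median of all genes by -0.69 to 0.43 and by -0.41 to -0.21. With 1 array left out, 1 to 3 were higher (E11.5 minus E9.5), 10 to 20 lower (6 weeks minus P0) and 1 to 3 higher (6 weeks minus E11.5).

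Signs turned, in no case of a called value, for Rpl3l at E11.5 minus E9.5 (-0.0145, no normalization) and Rpl3 at P0 minus E11.5 (-0.0536, median scaling). With 1 array left out they turned for Rpl3l at E9.5 (range -0.321 to 0.0718) and P0 (-0.203 to 0.0323), Rpl3 at E11.5 minus E9.5 (-0.0906 to 0.0115), Rps3a1 at E11.5 with αMHC::Cre (-0.15 to 0.646), Rplp2 at P0 (-0.00378 to 0.478) and Rpl7a at 6 weeks (-0.642 to 0.0858). The causes were not tested. Of 85 readings of genes with several probes above the median, 12 differed between probes by over 0.3 in log2 fold change.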
